A study of Mus musculus with 6 samples.

Results

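The genes described here are the 4 fibroblast growth factor (FGF) ligands *Fgf1*, *Fgf2*, *Fgf5*, and *Fgf7*, the 3 FGF receptors *Fgfr1*, *Fgfr2*, and *Fgfr3*, and the 3 platelet-derived growth factor (PDGF) ligands *Pdgfa*, *Pdgfb*, and *Pdgfc*. These 10 genes, the members, were taken by symbol from the 55401 genes of the count table, and all 10 were among the 22318 genes with enough reads to be tested. They were measured by bulk RNA-seq in Schwann cells (SCs), the glia of peripheral nerve, that were grown as primary cultures from the dorsal root ganglia (DRGs) of 3 WT and 3 *Plxnb1*-/- samples from adult mice. *Plxnb1* encodes Plexin-B1, a receptor for class 4 semaphorins, and the question was how its loss alters gene expression in SCs. The *Plxnb1*-/- mice carry a gene trap in every cell, on a C57BL/6 background, and the methods name WT and heterozygous littermates as controls, whereas the labels of these libraries say WT. All 6 cultures were grown in 10% serum with 2 µM forskolin and 10 nM neuregulin, were depleted of fibroblasts with an antibody to Thy1, and were stated to exceed 80% purity at passages 3 to 5. The sex of the mice was not given in the sources used here. Because no source used here says that replicates came from separate animals, p-values measure the spread between these cultures, which may in part be technical.

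FGFs bind receptor tyrosine kinases together with heparan sulfate and start the Ras-ERK, phospholipase C, and phosphoinositide 3-kinase cascades, which in turn induce their own inhibitors of the Sprouty and Dusp families. PDGF ligands are dimers that bind the kinases *Pdgfra* and *Pdgfrb*. *Pdgfc* and *Pdgfd* proteins need cleavage by a protease before they can act. In peripheral nerve, FGF2 and PDGF-BB are known as SC mitogens, and SCs produce PDGF ligands that can help to sustain their own survival.

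The 6 libraries held from 59252048 to 77280964 counts. Levels are given as CPM, counts scaled to library size by the TMM method, and a gene with 3 counts, the floor of detection used here, sat at 0.0383 to 0.0513 CPM. This floor covers counting error only. The *Plxnb1* transcript was measured at 61.8, 45.4, and 96.4 CPM in WT replicates 1, 2, and 3 and at 13.1, 16.6, and 18.6 CPM in the *Plxnb1*-/- replicates, and it fell with a log2 fold change of -2.08 ± 0.249 (SE; edgeR adjusted p = 0.0449). The paper reports that exons downstream of the gene trap lost expression. Counts per gene do not separate exons, so which exons gave the remaining reads was not tested. WT replicate 2 stood apart from the other libraries, with a score of -47.4 on the first principal component of log2 CPM against -7.52 to 34.0 in the other 5. It also had the highest summed level of fibroblast and of mural cell markers and the lowest of SC markers, so values without it are given where they matter.

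Among the SC markers, *Sox10*, a transcription factor of the SC lineage, had a WT mean of 486 CPM. *S100b*, an SC marker that the paper stained for, is named after its values were seen and had a WT mean of 7.56 CPM. *Kcnj10*, a satellite glia marker, had 704 CPM. What share of each culture was SCs was not tested. The 10 SC markers summed to 2480 to 2960 CPM in WT cultures and 2989 to 3435 in *Plxnb1*-/- cultures, and 9 of the 10 had a log2 fold change above 0. The cultures also held transcripts of other cell types. The 9 fibroblast markers, led by *Thy1*, *Dcn*, and *Col14a1*, summed to 933 to 1246 CPM in WT and 946 to 991 in *Plxnb1*-/- cultures, with 3 above and 6 below a log2 fold change of 0. The 9 mural cell markers, led by *Acta2*, *Pdgfrb*, and *Cspg4*, summed to 1886 to 2511 CPM in WT and 1711 to 1835 in *Plxnb1*-/- cultures, so that the genotypes did not overlap. The sum was carried by these 3 genes, with log2 fold changes of -0.42, -0.13, and -0.29, whereas 5 of the 9 markers were above 0 (median 0.07). Macrophage markers (8 genes, led by *Csf1r*, *C1qa*, and *C1qb*) summed to 44.7 to 50.6 and 52.3 to 61.7 CPM. Neuron markers (11 genes, led by *Tubb3*, *Prph*, and *Nefm*) summed to 158 to 172 and 173 to 201 CPM. Satellite glia markers (3 genes, led by *Kcnj10*, *Glul*, and *Fabp7*) summed to 762 to 883 and 906 to 933 CPM, and endothelial markers (6 genes, led by *Cdh5*, *Emcn*, and *Kdr*) to 63.9 to 83.5 and 68.0 to 74.0 CPM. The summed SC, macrophage, neuron, and satellite glia markers also did not overlap, and were higher in every *Plxnb1*-/- culture than in any WT culture. Most of the neuron sum came from *Tubb3* (WT mean 137.5 CPM), and most of the satellite glia sum came from *Kcnj10*. Fibroblast and endothelial sums overlapped. All 8 macrophage, 11 neuron, and 3 satellite glia markers had a log2 fold change above 0, against 2 of 6 endothelial markers. In bulk samples, fewer cells of a type and less RNA per cell cannot be told apart. No marker of any list was at or below 3 counts in all 6 libraries.

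Levels of different genes were compared as CPM per kilobase of merged exon. The receptor *Fgfr1* was the highest of the 10 in WT cultures, at 56.6, 60.9, and 56.4 CPM per kb in replicates 1, 2, and 3. It was followed by *Pdgfa* (41.5 ± 1.72, SD, n = 3), *Fgf2* (33.0 ± 1.13), *Pdgfb* (16.1 ± 1.92), *Pdgfc* (12.5 ± 1.12), *Fgf7* (10.4 ± 0.918), *Fgf5* (9.66 ± 1.90), and *Fgf1* (3.49 ± 0.659). The receptors *Fgfr2* (0.813 ± 0.0304) and *Fgfr3* (0.369 ± 0.0497) were lowest. The WT ranges of neighbours in this order overlapped for *Pdgfc* and *Fgf7* and for *Fgf7* and *Fgf5*, and were apart for the other 7 pairs. In *Plxnb1*-/- cultures the order was the same except that *Pdgfc* (9.96 ± 1.37) came after *Fgf7* (10.9 ± 1.1). The order rests on the length used: per kb of coding sequence, *Fgf2* was highest in WT cultures (485 ± 16.6), above *Fgfr1* (229 ± 10.0), and *Fgfr2* and *Fgfr3* were lowest again.

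**Figure D1:**
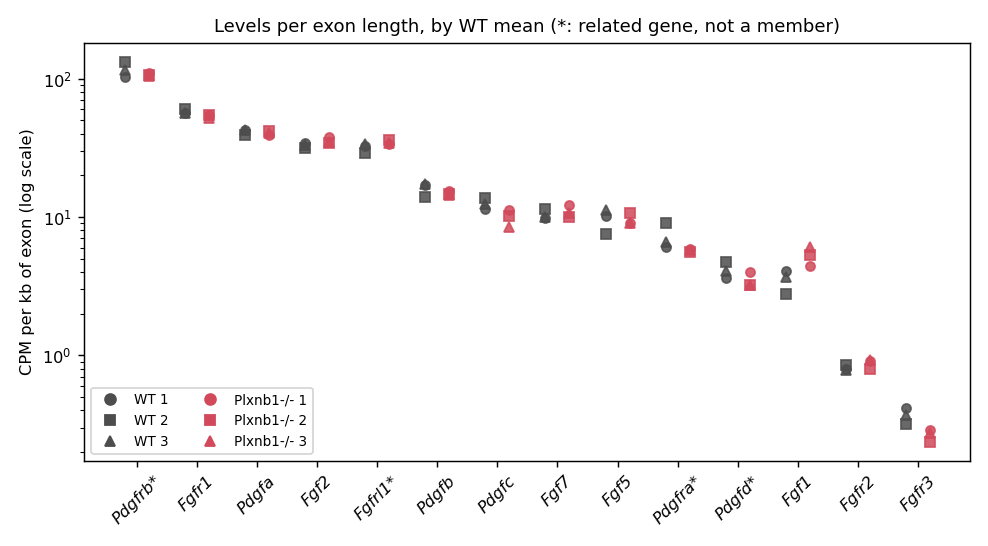
Level of each gene in CPM per kb of merged exon (vertical axis, log scale) in the 3 WT (grey) and 3 *Plxnb1*-/- (red) cultures, ordered by the WT mean; the shape gives the replicate and an asterisk marks a gene that is not one of the 10. *Fgfr1* lies above *Fgfr2* and *Fgfr3* in every culture, and *Pdgfrb* lies above all 10.

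The receptors were of very unequal level. *Fgfr1* made up 97.9%, 98.1%, and 98.0% of the summed CPM per kb of *Fgfr1* to *Fgfr4* in WT cultures and 97.8%, 98.1%, and 97.7% in *Plxnb1*-/- cultures (exact two-sided permutation test, p = 0.6). *Fgfr2* held 1.37% ± 0.0111 in WT and 1.6% ± 0.16 in *Plxnb1*-/- cultures (SD, n = 3; exact permutation p = 0.1, the smallest that 3 against 3 allows). The share of *Fgfr3* was 0.627% ± 0.105 and 0.484% ± 0.0537 (exact permutation p = 0.2). None of these p-values could pass 0.05 in this design. *Fgfr4*, the remaining FGF receptor kinase, had 2, 0, and 3 counts in WT and 2, 2, and 4 in *Plxnb1*-/- cultures, at or near the floor.

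Partners of the PDGF ligands were also unequal. The PDGF receptor *Pdgfrb* was measured at 117 ± 15.0 CPM per kb in WT and 107 ± 2.60 in *Plxnb1*-/- cultures (SD, n = 3), above each of the 10 genes per kb of merged exon, though below *Fgf2*, *Fgfr1*, and *Pdgfa* per kb of coding sequence (194 in WT). *Pdgfra*, which binds PDGF-A chains as well as PDGF-C, was at 7.28 ± 1.58 and 5.77 ± 0.138 CPM per kb, whereas its ligand *Pdgfa* was at 41.5 ± 1.72 and 40.7 ± 1.13. *Pdgfrb* and *Pdgfra* were also on the lists of mural cell and fibroblast markers, and which cells gave these transcripts was not tested.

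Of the 10 genes, 0 were called different between genotypes by edgeR (quasi-likelihood test). A call needed a Benjamini-Hochberg adjusted p, over all tested genes, below 0.05 and a log2 fold change beyond 0.25 in either direction. The background was low, since edgeR called 0.0358% of all tested genes, or 8 genes. An unadjusted p below 0.05 was found for 4 of the 10, *Fgf1*, *Fgf2*, *Fgfr3*, and *Pdgfc*, against 13.7% of all tested genes. DESeq2, the tool that the methods name, called 1 of the 10, *Fgf1*, in the higher direction, against 1.5% of all tested genes called in either direction and 0.69% called higher. The genotypes did not overlap for 5 of the 10, 2 higher and 3 lower in *Plxnb1*-/- cultures, against 19.7% of all tested genes (9.3% higher and 10.4% lower). The median log2 fold change of the 10 was -0.02, beside 0.005 over all tested genes.

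**Figure D2:**
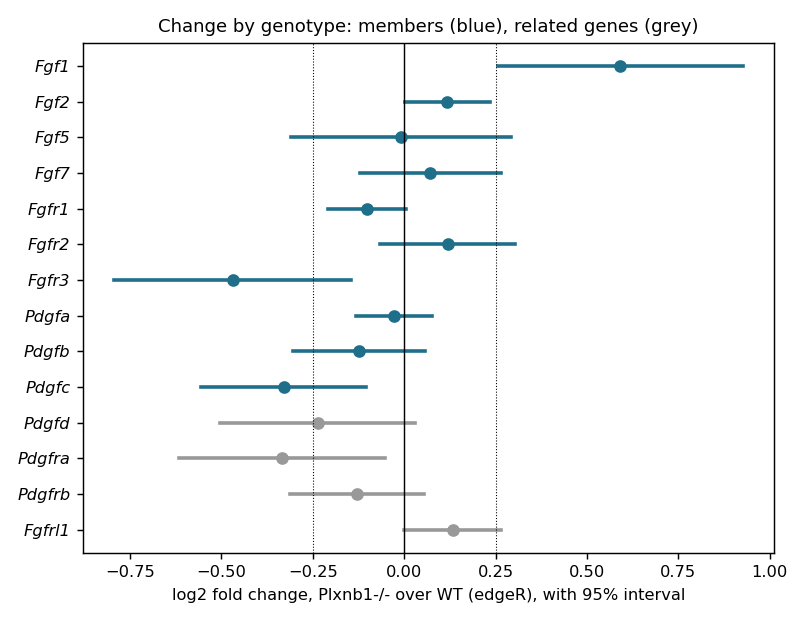
Log2 fold change of *Plxnb1*-/- over WT (horizontal axis, edgeR) with its 95% interval for the 10 genes (blue) and 4 related genes (grey); dotted lines mark the cutoff of 0.25 in either direction. *Fgf1*, at 0.59, lies farthest to the right, and *Fgfr3*, at -0.47, farthest to the left.

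*Fgf1* encodes acidic FGF, which lacks a signal peptide and binds all FGF receptors. The gene (ENSMUSG00000036585.16) lies on the minus strand at chr18:38838673-38929472 of GRCm38. It was measured at 22.1, 15.1, and 20.0 CPM in WT replicates 1, 2, and 3 and at 24.0, 29.1, and 33.2 CPM in *Plxnb1*-/- replicates 1, 2, and 3. The genotypes did not overlap, although *Plxnb1*-/- replicate 1 was close to WT replicate 1. The log2 fold change was 0.59 ± 0.148 (SE; 95% interval 0.26 to 0.93), with an edgeR adjusted p of 0.273 and a DESeq2 adjusted p of 0.00557. Over 16 alternative settings the adjusted p (edgeR, DESeq2 or limma) ranged from 0.00557 to 0.673, and in edgeR without the filter on low counts it was 0.0222. Without WT replicate 2, the lowest culture, the log2 fold change was 0.45 (edgeR adjusted p = 0.339).

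The 3 *Plxnb1*-/- cultures had the same order by *Fgf1* as by the summed SC markers, and WT replicate 2 was lowest in both, but WT replicates 1 and 3 were in the opposite order. The summed neuron markers, of which 11 of 11 had a log2 fold change above 0, put the 6 cultures in the same order as the SC markers. Most of that sum was *Tubb3*, and 2 of the 11 were higher without overlap, against 9.3% of all tested genes. Divided by the sum of SC markers, *Fgf1* was 7.49, 6.08, and 6.77 CPM per 1000 CPM of SC markers in WT and 8.02, 8.70, and 9.66 in *Plxnb1*-/- cultures, a log2 ratio of means of 0.37 with no overlap. On the sum of fibroblast markers the log2 ratio was 0.70 and on that of mural cell markers 0.82, again without overlap. In a share of the summed CPM per kb of the 4 FGF ligands, *Fgf1* had 6.94%, 5.15%, and 6.34% in WT and 6.89%, 8.85%, and 9.96% in *Plxnb1*-/- cultures, which overlapped.

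*Fgf2* encodes basic FGF, which also leaves cells without a signal peptide. The gene (ENSMUSG00000037225.13) lies on the plus strand at chr3:37348346-37410108. Its level was 231, 216, and 224.5 CPM in WT and 258, 232, and 238 CPM in *Plxnb1*-/- cultures. The genotypes did not overlap, with the nearest pair at 231.3 CPM in WT replicate 1 and 232.3 CPM in *Plxnb1*-/- replicate 2. The log2 fold change was 0.12 ± 0.0514 (SE), below the cutoff of 0.25, with an edgeR adjusted p of 0.362, and it was 0.07 without *Plxnb1*-/- replicate 1. *Fgf2* made up 58.4% ± 1.13 of the summed CPM per kb of the 4 FGF ligands in WT and 58.1% ± 1.52 in *Plxnb1*-/- cultures (SD, n = 3), and 78.9% in WT where coding length was used. Its exons share 9.44% of their length with *Nudt6*, a nudix hydrolase gene on the opposite strand, which reached at most 27.3 CPM, and 3.76% with *Gm43439* on the same strand, at 9.55 to 10.6 CPM. The strand setting of the counting is not given in the sources used here, so reads on shared exons cannot be assigned with certainty.

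The other FGF ligands overlapped between genotypes. *Fgf5*, a ligand with a signal peptide, was at 25.6, 18.8, and 28.0 CPM in WT and 22.7, 26.7, and 22.7 CPM in *Plxnb1*-/- cultures, with WT replicate 2 lowest. Its log2 fold change was -0.01, with a 95% interval of -0.31 to 0.29, so that a change of the size seen in *Fgfr3* or *Fgf1* lay outside it. *Fgf7*, or keratinocyte growth factor, a ligand of the epithelial isoform of *Fgfr2*, was at 32.0, 37.3, and 32.3 CPM in WT and 39.5, 32.4, and 34.7 CPM in *Plxnb1*-/- cultures. Its log2 fold change was 0.07, with a 95% interval of -0.12 to 0.26. Which isoform of *Fgfr2* was expressed was not analysed here.

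**Figure D3:**
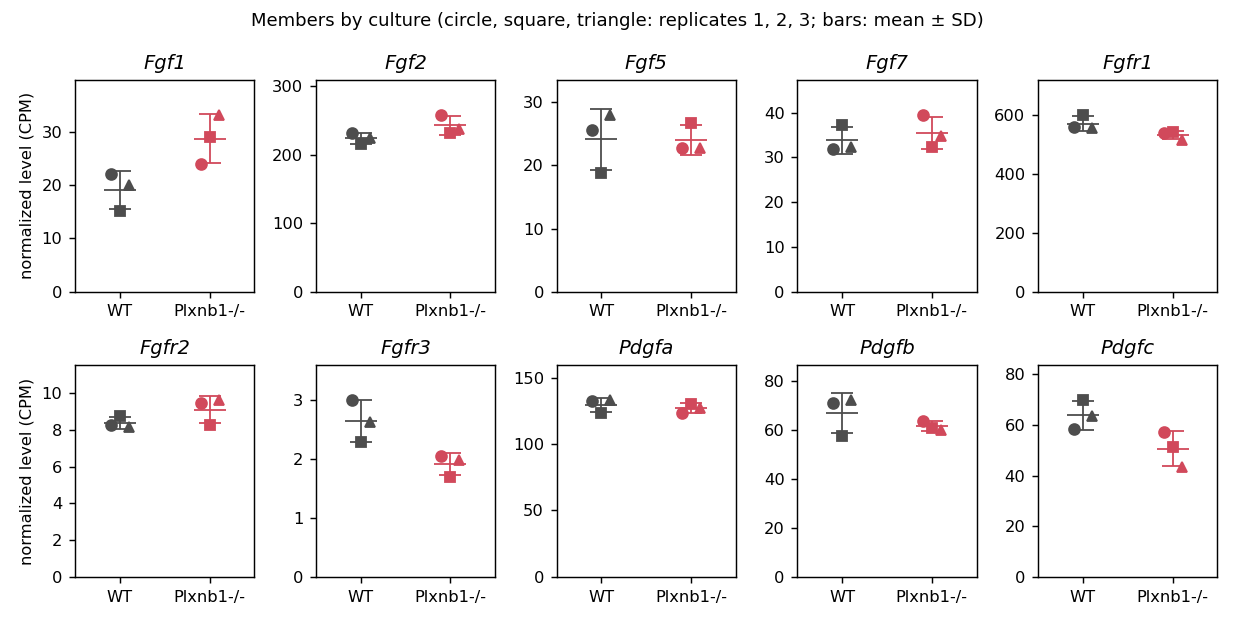
Level in CPM (vertical axes, each from 0) of the 10 genes in the 3 WT (grey) and 3 *Plxnb1*-/- (red) cultures; the marker shape gives the replicate, and the bars give the mean ± SD (n = 3). *Fgf1* is higher in every *Plxnb1*-/- culture, *Fgfr3* and *Pdgfc* are lower in every one, and *Fgf5*, *Fgf7*, *Fgfr2*, *Pdgfa*, and *Pdgfb* overlap.

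Among the receptors, *Fgfr1* (ENSMUSG00000031565.18, chr8:25513654-25575718, plus strand) was at 559, 601, and 557 CPM in WT and 539.8, 544, and 516.5 CPM in *Plxnb1*-/- cultures. The genotypes did not overlap, and WT replicate 2 was the highest. The log2 fold change was -0.10 ± 0.047 (SE; 95% interval -0.21 to 0.0048; edgeR adjusted p = 0.38), and it was -0.06 without WT replicate 2. *Fgfr2* was at 8.28, 8.75, and 8.15 CPM in WT and 9.46, 8.26, and 9.61 CPM in *Plxnb1*-/- cultures, which overlapped, with a log2 fold change of 0.12 and a 95% interval of -0.07 to 0.30. The exons of *Fgfr1* share 1.66% of their length with *Gm16159* on the opposite strand (at least 11.7 CPM), and those of *Fgfr2* share 3.04% with *Ctbp2* on the same strand (62.8 to 64.7 CPM).

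*Fgfr3* (ENSMUSG00000054252.18, chr5:33721674-33737068, plus strand) had the fewest reads of the 10, with 192, 134, and 187 counts in WT and 161, 123, and 137 in *Plxnb1*-/- cultures. These correspond to 3.00, 2.29, and 2.64 CPM and to 2.06, 1.70, and 1.98 CPM, so the receptor was lower in every *Plxnb1*-/- culture. The log2 fold change was -0.47 ± 0.143 (SE; 95% interval -0.79 to -0.15), with an edgeR adjusted p of 0.286 and a DESeq2 adjusted p of 0.131. Leaving out 1 culture at a time gave -0.56 to -0.37. Divided by the summed SC markers the genotypes were also apart (log2 ratio -0.68), but they overlapped when divided by the fibroblast markers (-0.35) or the mural cell markers (-0.23). The antisense gene *G630022F23Rik*, which shares 13.9% of the exon length of *Fgfr3*, reached at most 0.172 CPM.

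The bases upstream of *Fgfr3* and *Pdgfc* are printed because these are the members farthest below 0, and for both the bases before the start in RefSeq and in GENCODE could be read. They come from RefSeq on GRCm38.p6, read 5′ to 3′ on the plus strand, and capitals mark the GC box GGGCGG or its complement. The *Fgfr3* sequence is chr5:33721474-33721673 and ends 50 bases before the RefSeq start, and the *Pdgfc* sequence is chr3:81036166-81036415 and ends at it.
Fgfr3: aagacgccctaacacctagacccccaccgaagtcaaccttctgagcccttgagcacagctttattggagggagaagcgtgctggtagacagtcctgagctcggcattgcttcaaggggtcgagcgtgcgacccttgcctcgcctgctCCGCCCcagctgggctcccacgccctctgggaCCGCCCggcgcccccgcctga
Pdgfc: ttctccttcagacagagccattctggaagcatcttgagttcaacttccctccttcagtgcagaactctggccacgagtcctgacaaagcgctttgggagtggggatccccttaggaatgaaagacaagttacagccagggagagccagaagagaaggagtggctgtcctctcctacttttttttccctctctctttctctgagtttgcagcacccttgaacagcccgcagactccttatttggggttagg
The 200 bases at *Fgfr3* were 65.0% G or C, against a median of 51.5% for the same window of 32851 RefSeq promoters, and held 14 CpG pairs against a median of 4. They held 2 GC boxes (24.6% of promoters held at least 1), 1 CCAAT box spelled CCAAT (28.4%), and 1 EGR site spelled GCGNGGGCG (3.04%), counted on both strands and with no overlap between matches. They held 0 TATA boxes spelled TATAAA (9.14%) and 0 AP-1 sites spelled TGANTCA (5.57%). The 250 bases at *Pdgfc* were 50.8% G or C against a median of 52.4%, held 3 CpG pairs against 6, and matched 0 of these 5 motifs, which were found in 32.7%, 33.8%, 4.7%, 12.4%, and 6.75% of promoters in the same order. These matches describe letters only.

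*Pdgfc* encodes a PDGF chain that is secreted in a latent form. The gene (ENSMUSG00000028019.9) lies on the plus strand at chr3:81036416-81214040. It was at 58.3, 69.7, and 63.4 CPM in WT replicates 1, 2, and 3 and at 57.4, 51.3, and 43.4 CPM in *Plxnb1*-/- replicates 1, 2, and 3. The genotypes did not overlap, but WT replicate 1 and *Plxnb1*-/- replicate 1 were close. The log2 fold change was -0.33 ± 0.0995 (SE; 95% interval -0.56 to -0.10), with an edgeR adjusted p of 0.285 and a DESeq2 adjusted p of 0.058. Without WT replicate 2 it was -0.26 (edgeR adjusted p = 0.515). The order of the 6 cultures by *Pdgfc* was that of their summed mural cell markers, from WT replicate 2 to *Plxnb1*-/- replicate 3. However, the mural sums of *Plxnb1*-/- replicates 1 and 2 were nearly equal (1835.3 and 1834.4 CPM). The mural sum is mostly *Acta2*, *Pdgfrb*, and *Cspg4*, and not every mural marker had this order. *Myh11*, a smooth muscle myosin named after its values were seen, was lowest in WT replicate 2 (5.02 CPM) and highest in *Plxnb1*-/- replicate 3 (14.0 CPM). Divided by the sum of mural cell markers, *Pdgfc* was 30.9, 27.8, and 30.3 in WT and 31.3, 28.0, and 25.4 CPM per 1000 CPM of mural cell markers in *Plxnb1*-/- cultures, which overlapped (log2 ratio -0.07). The genotypes also overlapped when divided by the fibroblast markers (-0.18), but they were apart when divided by the summed SC markers (-0.56). The antisense gene *Gm16000*, which shares 2.89% of the exon length, was at 3.58, 4.77, and 4.02 CPM in WT and 3.17, 3.20, and 3.23 CPM in *Plxnb1*-/- cultures, with a log2 fold change of -0.36.

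*Pdgfa* and *Pdgfb* encode the A and B chains. *Pdgfa* was at 132, 123, and 133 CPM in WT and 123, 130.4, and 127 CPM in *Plxnb1*-/- cultures, which overlapped, with a log2 fold change of -0.03 and a 95% interval of -0.13 to 0.08. This interval was the narrowest of the 10, and it lay within the cutoff of 0.25 in both directions. An antisense gene, *6330403L08Rik*, covers 26.1% of the exon length of *Pdgfa* and was at 26.8 to 32.4 CPM. *Pdgfb* was at 71.0, 57.7, and 72.1 CPM in WT and 63.8, 60.7, and 59.9 CPM in *Plxnb1*-/- cultures, which overlapped only through WT replicate 2. Its log2 fold change was -0.12 (95% interval -0.30 to 0.06; edgeR adjusted p = 0.525) with all cultures and -0.22 (edgeR adjusted p = 0.286) without that replicate. It was -0.08 without WT replicate 1 and -0.07 without WT replicate 3 (edgeR adjusted p = 0.712 and 0.787).

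Without WT replicate 2, 8 of the 10 genes did not overlap (3 higher and 5 lower), beside 25.9% of all tested genes (12.3% higher and 13.6% lower), whereas it was 5 of 10 with that culture. The added genes were *Fgf7*, *Pdgfa*, and *Pdgfb*. Divided by the summed markers of SCs, fibroblasts, or mural cells, 6, 1, and 4 of the 10 did not overlap, beside 31.1%, 14.2%, and 34.6% of all tested genes. *Fgf1* was apart in the higher direction on each of the 3 scales, where 1.42% (SCs), 11.9% (fibroblasts), and 33.4% (mural cells) of all tested genes were, and it was the only member apart on the fibroblast scale. *Fgfr1*, *Fgfr3*, *Pdgfa*, *Pdgfb*, and *Pdgfc* were lower on the SC scale, as were 29.7% of all tested genes, and *Fgf2*, *Fgf7*, and *Fgfr2* were higher on the mural scale. These scales were added after the data were seen, and what part the differences in markers had in the values of the members was not tested.

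**Figure D4:**
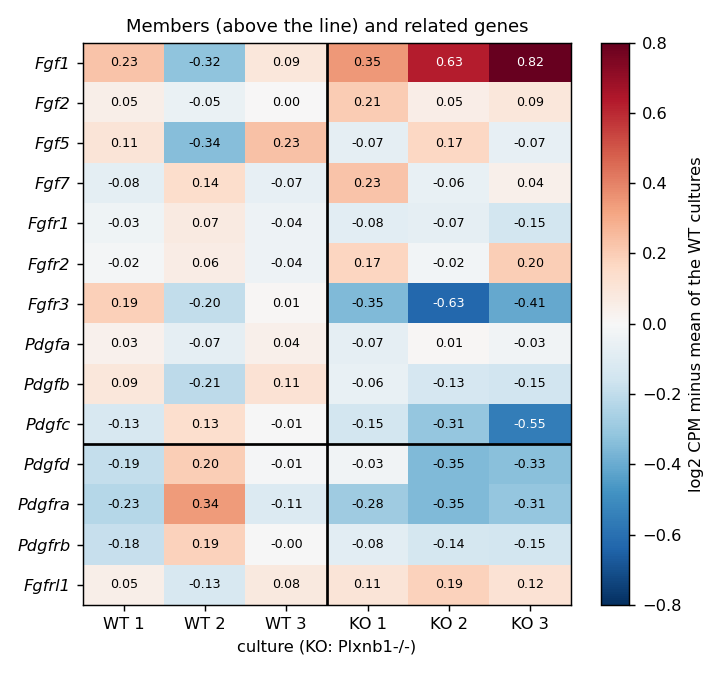
Log2 CPM of each culture minus the mean log2 CPM of the WT cultures (color and number in each cell) for the 10 genes, above the line, and 4 related genes, below it; columns are cultures and KO stands for *Plxnb1*-/-. Among the members, WT replicate 2 is the lowest WT culture for *Fgf1* (-0.32), *Fgf5* (-0.34), *Fgfr3* (-0.20), *Pdgfb* (-0.21), *Pdgfa* (-0.07), and *Fgf2* (-0.05). It is the highest WT culture for the members *Fgf7* (0.14), *Pdgfc* (0.13), *Fgfr1* (0.07), and *Fgfr2* (0.06). Of the related genes, it is the highest for *Pdgfra* (0.34), *Pdgfd* (0.20), and *Pdgfrb* (0.19) and the lowest for *Fgfrl1* (-0.13).

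The receptors and remaining ligand of the PDGF family were described beside the 10 genes. *Pdgfra* was at 61.3, 91.0, and 66.6 CPM in WT and 59.1, 56.4, and 58.0 CPM in *Plxnb1*-/- cultures, which did not overlap (log2 fold change -0.33, edgeR adjusted p = 0.314). *Pdgfrb* was at 563, 727, and 638 CPM in WT and 604, 581, and 578 CPM in *Plxnb1*-/- cultures (log2 fold change -0.13; edgeR adjusted p = 0.514). *Pdgfd* was at 11.3, 14.8, and 12.9 CPM in WT and 12.7, 10.1, and 10.3 CPM in *Plxnb1*-/- cultures (log2 fold change -0.24; edgeR adjusted p = 0.408). In all 3, WT replicate 2 was the highest of the 6 cultures. *Pdgfrl*, a receptor-like protein, had the highest log2 fold change of this list, 0.06.

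In 9 lists of 91 other genes of these pathways, 82 were tested, of which edgeR called 0 and DESeq2 called 2 (1.5% of all tested genes). An unadjusted p below 0.05 was found for 21 of the 82, beside 13.7% of all tested genes, and the median log2 fold change of the 82 was -0.02. The genotypes did not overlap for 14 genes that were higher and 9 that were lower in *Plxnb1*-/- cultures, beside 9.3% and 10.4% of all tested genes.

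The list of feedback inhibitors and target genes of the ERK cascade had 19 genes, all tested, with a median log2 fold change of 0.08. It had 8 genes with an unadjusted p below 0.05 (13.7% of all tested genes), and 8 that were higher and 1 that was lower without overlap (9.3% and 10.4% of all tested genes). For most of the 8 that were higher, WT replicate 2 was the lowest of the 6 cultures, and the median of this list was not computed without it. *Etv1*, an ETS transcription factor, was at 9.08, 7.41, and 8.57 CPM in WT and 10.9, 9.99, and 11.3 CPM in *Plxnb1*-/- cultures, with a log2 fold change of 0.36 (edgeR adjusted p = 0.273; DESeq2 adjusted p = 0.036). It was called by DESeq2 alone. *Spry1*, a Sprouty inhibitor of receptor tyrosine kinase signaling, was lowest on the list with a log2 fold change of -0.36 and overlapped (19.9, 39.3, and 31.3 CPM in WT; 25.9, 24.3, and 20.2 CPM in *Plxnb1*-/- cultures).

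The list of proteases that process PDGF chains had 7 genes, with a median log2 fold change of -0.19 and 6 of 7 below 0. WT replicate 2 was the highest culture for most of these 6, including *Plau*, and WT replicate 3 for the rest. The sparsest, *St14*, named after its values were seen, had 20 to 33 counts. *Plau*, or urokinase, a protease known to activate PDGF-D, was at 93.4, 122, and 94.3 CPM in WT and 78.2, 84.2, and 63.4 CPM in *Plxnb1*-/- cultures, with a log2 fold change of -0.45 (edgeR adjusted p = 0.273; DESeq2 adjusted p = 0.0147). DESeq2 called it lower. *Plat*, or tissue plasminogen activator, which activates PDGF-C, had the highest value on the list, 0.02, at 674 to 729.9 CPM.

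The adaptors and kinases of the ERK cascade were 19 genes with a median log2 fold change of -0.01, ranging from -0.19 for *Plcg1*, a phospholipase C, to 0.18 for *Pik3r1*, a regulatory subunit of phosphoinositide 3-kinase. The 12 enzymes of heparan sulfate had a median of -0.04. *Hs6st1*, a sulfotransferase, was lowest at -0.53, with 94.2, 165.5, and 113.6 CPM in WT and 88.9, 89.2, and 80.2 CPM in *Plxnb1*-/- cultures, where WT replicate 2 was far above the rest. *Ndst1*, another sulfotransferase, was highest at 0.14. The 3 genes known for FGF export without a signal peptide had a median of 0.03, and *S100a13* was lowest at -0.02.

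The list of other FGF receptors and cofactors had 9 genes, of which 7 were tested, with a median of 0.05. *Fgfrl1*, a receptor without a kinase domain, was at 91.0, 80.5, and 93.1 CPM in WT and 94.7, 100.1, and 95.3 CPM in *Plxnb1*-/- cultures, which did not overlap (log2 fold change 0.13; edgeR adjusted p = 0.366). Per kb it reached 31.7 ± 2.43 and 34.8 ± 1.07 (SD, n = 3), near the level of *Fgf2* on this scale but not per kb of coding sequence (55.6 against 485 in WT). The extremes of the list, *Fgfr4* and *Fgfbp1*, were near the floor. The 4 FGF homologous factors, which stay in the cell, had a median of 0.15, from -0.40 for *Fgf14* to 0.45 for *Fgf13*. *Fgf14* had 4 to 22 counts in a library. Of 14 other FGF ligands, 7 were tested, and the extremes *Fgf3* and *Fgf10* had at most 18 counts in a library.

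**Figure D5:**
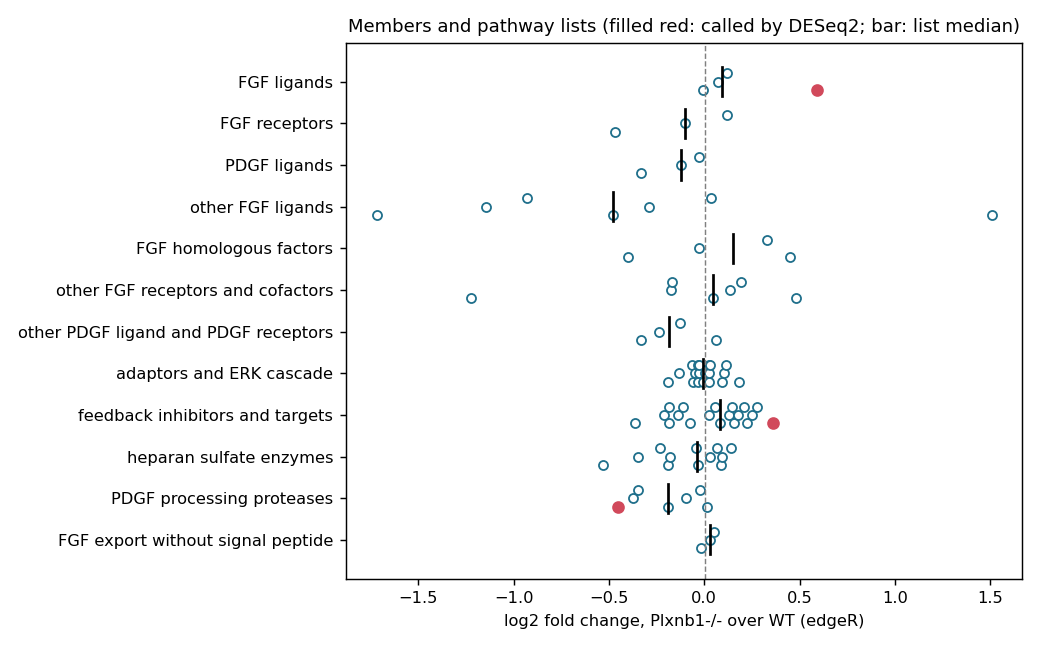
Log2 fold change of *Plxnb1*-/- over WT (horizontal axis, edgeR) of each tested gene of the 3 groups of members and the 9 pathway lists; open circles were called by neither tool, filled red circles were called by DESeq2, black bars give list medians, and the dashed line gives the median of all tested genes, 0.005. *Fgf1* (0.59), *Etv1* (0.36), and *Plau* (-0.45) are the 3 filled circles.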

How the data were processed

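Libraries were grouped by the genotype in the labels. Per the labels and methods, the authors trimmed reads (Trim Galore 0.6.5), aligned them to mm10 (Bowtie2 2.4.1, which does not span introns, so reads across splice junctions may be lost), removed duplicates, and counted exonic reads with featureCounts. The deposited counts are not normalized. The authors also deposited FPKM values. In these, the length behind the value was within 1% of the span of the gene in 99.5% of 13619 genes compared, and of its merged exons in 0.756%, so levels between genes were taken from counts and exon lengths. Lengths, strands, and positions came from GENCODE M21 on GRCm38, an older release than the authors used (55141 of 55401 identifiers matched without the version).

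edgeR 4.0.16 (TMM, quasi-likelihood test with a term for genotype) was run on the 22318 genes that had 2 or more counts in 5 or more of the 6 libraries, with Benjamini-Hochberg adjustment over all of them. A call required an adjusted p under 0.05 and a log2 fold change beyond 0.25 in either direction. Standard errors are the fold change divided by the root of the F statistic. The main test was edgeR rather than DESeq2 1.42.0, the tool of the methods, which was an alternative with limma 3.58.1 on log2(FPKM + 0.1), other normalizations and filters, a replicate block, and leaving out each library. R 4.3.3, Python 3.11.15, pandas 2.3.3, and SciPy 1.17.1 were used, and the test script was checked on simulated data.

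The members and lists were chosen with earlier results of these data known. Named genes are the 10 members, *Plxnb1*, genes sharing exons with a member, *Pdgfra*, *Pdgfrb*, *Pdgfd*, *Fgfr4*, and *Fgfrl1*, the called, highest and lowest genes of each pathway list, and the 3 highest markers of each marker list; a few genes that this rule names are not reported here. RefSeq promoters were matched for *Fgfr3* and *Pdgfc*. Other experiments of the study were not analysed here.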

Additional observations from a re-analysis of the deposited data

How the results depend on the processing

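The fold changes of *Fgf1*, *Fgf2*, *Fgfr1*, *Fgfr2*, *Fgfr3*, *Pdgfa*, *Pdgfb*, and *Pdgfc* kept their direction in all 16 alternatives, but not their size: on log2(FPKM + 1), which understates low genes, *Fgf1* was 0.12, *Fgfr3* -0.06, *Pdgfc* -0.08, and *Fgfr2* 0.0004, and on log2(FPKM + 0.1) they were 0.44, -0.27, -0.25, and 0.0037. *Fgf5* reversed to 0.0182 and 0.0065 (limma on log2(FPKM + 0.1) and log2(FPKM + 1)) and to 0.0049 (replicate block), and ranged from -0.15 to 0.11 with 1 culture left out. *Fgf7* ranged from -0.0131 to 0.15, and the median of the members from -0.07 to 0.01. *Fgf1* was called without the filter on low counts and by DESeq2, so that 1 member was called in each. Among pathway genes, 2 were called without the filter (*Plau* and *Fgf21*, the second named after its values were seen, at 4.94, 15.6, and 8.28 CPM in WT and 4.36, 5.16, and 3.48 in *Plxnb1*-/- cultures) and 2 by DESeq2 (*Etv1* and *Plau*). Over all genes, edgeR called 8, 296 without the filter, 335 by DESeq2, and 3 by limma at either pseudocount. Leaving out 1 culture gave 4 to 25 called genes, the most without WT replicate 2, and 5 to 8 members without overlap. The 8 came without WT replicate 2, beside 25.9% of all tested genes (19.7% with all cultures). Each other culture left out gave 5 or 6 members, beside a share of all tested genes above 25.9%. On the scale of fibroblast markers 1 member did not overlap, beside 14.2% of all tested genes. The cause of these differences between settings was not tested.

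The WT share of *Fgfr1* was 97.8% with the longest transcript and 98.1% in FPKM. That of *Fgfr2* was 1.63% with the longest transcript, 1.43% with coding length, and 0.0302% in FPKM, which divides by the span of the gene. That of *Fgfr3* was 0.473% with coding length and 1.83% in FPKM. With the replicate block, 5 genes and 0 members were called. Correlations of deviations between WT and *Plxnb1*-/- replicates 1, 2, and 3 of the same number were -0.0218, 0.00782, and 0.0653. WT replicate 3 correlated best with its own number, and WT replicates 1 and 2 did not. With 3 cultures per genotype, these values cannot tell whether the cultures were paired. With 3 cultures per genotype, *Fgfr3* (123 to 192 counts) had the least depth of the members.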
